A study of Caenorhabditis elegans with 2 samples.

Results

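The 37 genes described here build or maintain the cilia of sensory neurons in Caenorhabditis elegans. They were listed by name as known ciliary genes, by a rule that uses no measured value, though earlier results of these data were known when they were chosen. All 37 matched a protein-coding gene of the 19973 on the 6 nuclear chromosomes. The study mapped MEC-3, a LIM homeodomain transcription factor of touch receptor neurons, by chromatin immunoprecipitation and sequencing (ChIP-seq) with an antibody against GFP. The animals were whole hermaphrodite late embryos of strain OP55, taken 4 h after egg bleaching. The strain carries the unc-119(ed3) allele on chromosome III and the transgene wgIs55, which expresses MEC-3 with GFP and FLAG at its C terminus. There is 1 group of 2 biological replicates, both of that strain, and no control sample was analysed here. Chromatin came from whole embryos, so binding in few cells and weak binding in many cannot be told apart.

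The cilia of this animal sit at the dendrite tips of sensory neurons and carry receptors for chemicals, temperature and touch. Proteins move along the ciliary axoneme by intraflagellar transport (IFT), in which kinesin-2 motors carry trains of IFT complexes A and B outward and a dynein motor returns them. The BBSome is a cargo adaptor that rides on these trains, and the transition zone is a gate at the base of the cilium. Many of the genes share a promoter element, the X-box, which is bound by the RFX transcription factor DAF-19, itself a member of the group. Touch receptor neurons, which need MEC-3, have no cilia, whereas the FLP neurons, which also express it, are ciliated.

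For each gene, the value used was the highest signal among the candidate regions whose summit lay from 1000 bp upstream to 500 bp downstream of an annotated transcript 5′ end. The authors' candidate lists hold 27953 regions called on both replicates together, 30000 for replicate 1 and 22464 for replicate 2. These lists include background, and the signal is the authors' own, on an unstated scale, and was compared only within a list. Read depth is unknown. The list of both replicates is called pooled below. A final peak is 1 of the 457 regions that passed the authors' reproducibility step, with a lowest signal of 77.4. With 1 group and no control, the comparison is between the cilia genes and all protein-coding genes, given as counts and medians without a test.

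None of the 37 cilia genes had a final peak in its promoter window. Of the 37, 16 (43.2%) had a pooled candidate region there, against 8225 of 19973 protein-coding genes (41.2%). Among the 16 with a region, 0 had a final peak, where 331 of the 8225 genes did (4.02%). The median signal of the highest region was 31.1 over the 16 cilia genes and 32.5 over the 8225 genes, so the typical cilia gene with a region lay near the middle of all genes. In the pooled list the cilia genes ranged from 23.1 to 73.0, and all genes from 21.8 to 722. The median −log10 q-value of these regions was low, 0.126 over the 16 cilia genes and 0.149 over the 8225 genes. At the 3 cilia genes of highest signal it was 1.8 (daf-19), 0.852 (dyf-3) and 0.586 (bbs-8). Of the 16, 12 lay in the lower part of all genes, at or below the median, where 4112 of the 8225 genes lay by construction. Above the 75th percentile were 3 of the 16 (18.8%, against 25.0% of all genes by construction), and 1 was above the 90th (10.0% by construction).

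**Figure D1:**
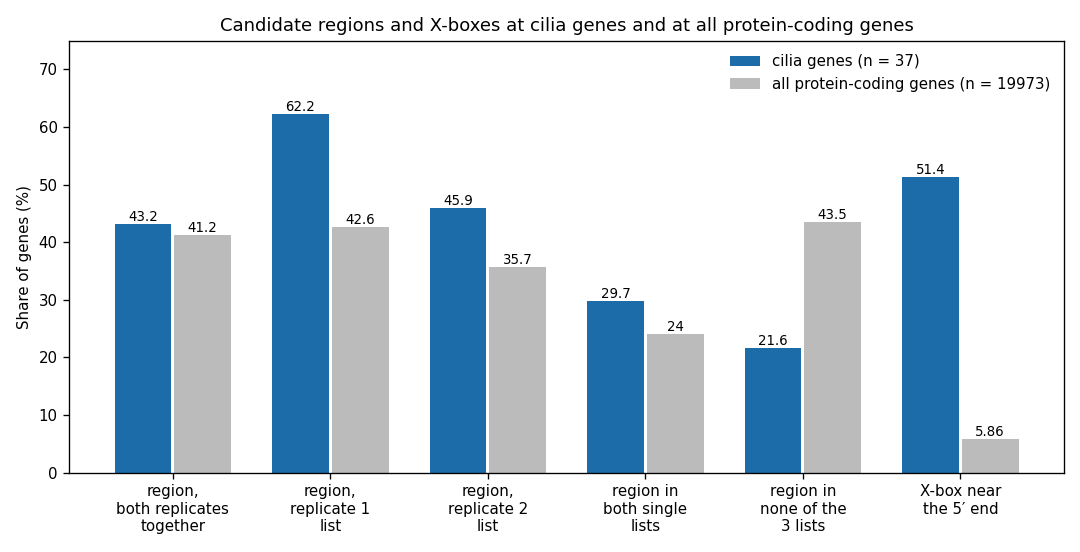
Share of genes in percent for the 37 cilia genes (blue) and all 19973 protein-coding genes (grey): with a candidate region in the promoter window in each list, in both single-replicate lists, in none of the 3 lists, and with an X-box near a 5′ end. The shares for the pooled list are 43.2% and 41.2%, while the X-box shares are 51.4% and 5.86%.

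Single-replicate lists held a region for more of the cilia genes, mostly weak ones. In replicate 1, 23 of the 37 (62.2%) had a region, against 42.6% of all protein-coding genes, and in replicate 2, 17 (45.9%), against 35.7%. A region in both single lists was found for 11 cilia genes (29.7%), against 24.0% of all genes. The 8 with no region in any of the 3 lists (21.6%, against 43.5%) were osm-3, che-3, osm-1, osm-5, bbs-2, bbs-5, bbs-9 and nphp-4. The median percentile of the cilia genes among all genes with a region was 44.7 in the pooled list, 35.2 in replicate 1 and 28.1 in replicate 2. A larger share of cilia genes than of all genes thus had some region in replicate 1, but those regions sat low in the list, with a median signal of 15.9, against 18.1 over all genes. Several annotated 5′ ends, which widen the window, were found in 16 of the 37 cilia genes (43.2%), against 26.3% of all genes. Among genes with a single 5′ end, 38.1% of 21 cilia genes had a pooled region, against 35.9% of all such genes, and 57.1% had a replicate 1 region, against 37.6%. Among genes with several, 50% of 16 cilia genes had a pooled region, against 55.9%, and 68.8% a replicate 1 region, against 56.8%. The share with no region in any list was 33.3% of cilia genes with a single 5′ end, against 48.5% of all such genes, and 6.25% of those with several, against 29.3%. The larger share in replicate 1 and the smaller share with no region were present both with a single and with several 5′ ends. Among genes with several, however, the median window length was 2997.5 bp for cilia genes and 2209 bp for all genes. The part of window length in these shares was not tested.

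**Figure D2:**
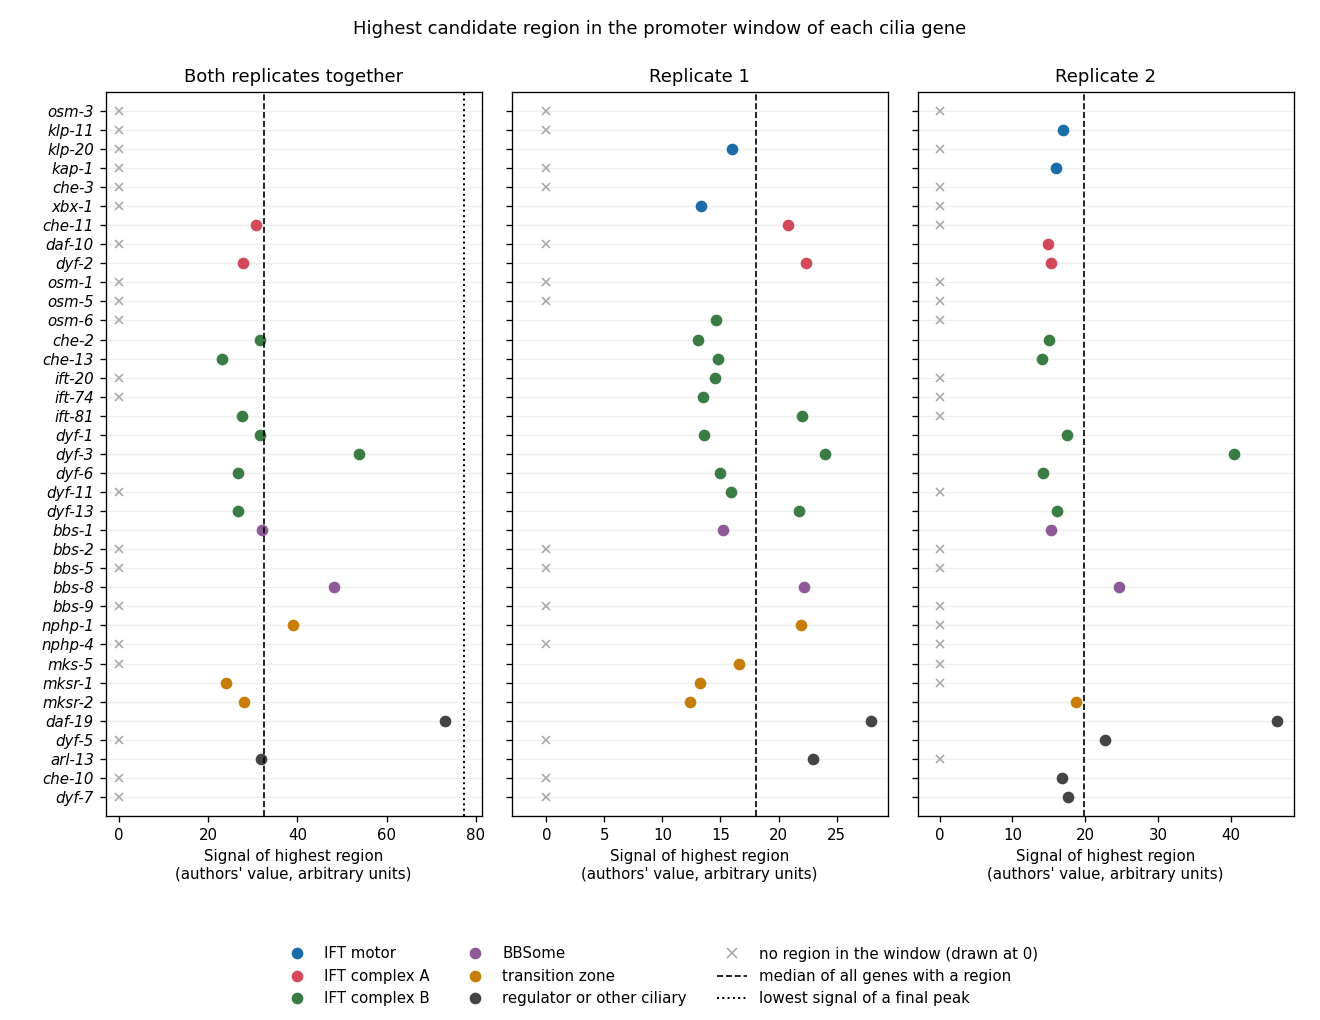
Signal of the highest candidate region in the promoter window of each of the 37 cilia genes, by role, in the pooled list and in each replicate's list (the signal scale differs between panels). Dashed lines are the median over all genes with a region (32.5, 18.1 and 19.8), the dotted line is the lowest signal of a final peak (77.4), and crosses at 0 mark genes with no region; daf-19, dyf-3 and bbs-8 stand farthest to the right in the pooled list.

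The highest signal in the group belonged to daf-19, which encodes the RFX factor that switches on ciliary genes. Its pooled region at chrII:10169267-10169710 on the ce11 genome build had a signal of 73.0 and a −log10 q-value of 1.8. No final peak had a signal below 77.4, and none had a −log10 q-value below 1.84. It ranked 603 among the 27953 pooled regions, and daf-19 ranked 415 among the 8225 genes, at percentile 95.0. In the single lists the region had a signal of 28.0 in replicate 1 (rank 2972) and 46.3 in replicate 2 (rank 343), with summits 6 and 0 bp from the pooled summit. The region was therefore found in both replicates at nearly the same base, but it ranked far higher in replicate 2 than in replicate 1. Its summit lay 143 bp upstream of the most upstream daf-19 5′ end, within no protein-coding gene. None of the 24-mers within 100 bp of it occurs elsewhere in the genome (0%).

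An X-box lies 66 bp from this summit, toward the gene, and inside the region. The 201 bases centred on the summit, chrII:10169389-10169589 on ce11, are shown because they hold both the X-box and the strongest candidate signal of the group. They are printed on the minus strand, in the direction of daf-19 transcription. The first capitals mark TCTCTCTC, which overlaps matches to GAGAGA on the other strand, and the last capitals mark the X-box.
daf-19: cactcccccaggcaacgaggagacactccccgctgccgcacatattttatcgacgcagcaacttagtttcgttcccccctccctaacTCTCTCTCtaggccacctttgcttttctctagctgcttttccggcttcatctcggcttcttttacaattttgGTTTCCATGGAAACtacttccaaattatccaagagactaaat

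Further candidate regions lay along the daf-19 gene, which is annotated with several 5′ ends. The pooled list had 4 regions in its promoter windows, the others with signals of 37.5, 54.6 and 37.1. The region of signal 54.6 lay at -215 bp relative to an internal 5′ end located 4894 bp into the gene, and had a counterpart of signal 40.3 in replicate 2. Replicate 1 had no summit at that base, and its closest region there, of signal 22.1, lay at -439 bp relative to the same 5′ end. A further pooled region, of signal 60.6, fell 585 bp downstream of another 5′ end and so outside the window. The first promoter thus carried a region above the median of all genes in the pooled list and in each replicate. At the internal promoter no single region did so. The region at -215 bp had no replicate 1 counterpart. The pooled region of signal 37.1 there, at -443 bp, had 22.1 in replicate 1. In replicate 2 it had 15.6, below that list's median of 19.8.

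**Figure D3:**
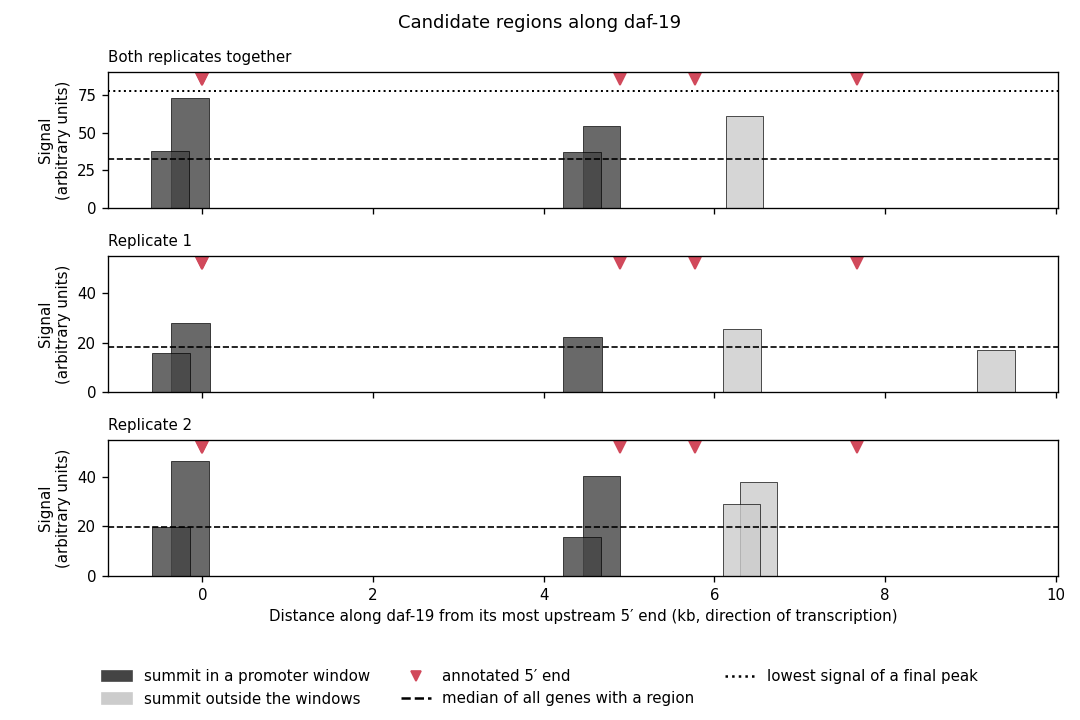
Candidate regions along daf-19, drawn as bars whose width is the region's extent and whose height is its signal, in the pooled list and in each replicate's list; the x axis is distance in kb from the most upstream 5′ end. The tallest bar in the pooled list (73.0) stands at the first 5′ end below the dotted line of the lowest final peak (77.4), and it is also the tallest in both replicates (28.0 and 46.3).

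Among the remaining regulators and other ciliary genes, arl-13, which encodes a small GTPase of the ciliary membrane, had a pooled signal of 31.9 (percentile 47.9). Its region had a signal of 23.0 in replicate 1 and no match in replicate 2, and the summit lay in a coding exon of moag-4, whose window also holds it. For dyf-5, which encodes a MAK-type kinase that limits cilium length, only the replicate 2 list had a region in the window (22.7, percentile 65.6). The same was true of che-10, the rootletin gene of the ciliary rootlet (16.8), and of dyf-7, which encodes a zona pellucida domain protein that anchors dendrite tips (17.6).

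The IFT motor genes had no pooled region in any promoter window: 0 of 6, against 41.2% of all protein-coding genes. osm-3 encodes the homodimeric kinesin-2, klp-11, klp-20 and kap-1 the subunits of the heterotrimeric kinesin-2, che-3 the dynein heavy chain and xbx-1 a dynein light intermediate chain. Replicate 1 alone had weak regions at klp-20 (16) and xbx-1 (13.3), and replicate 2 alone at klp-11 (16.9) and kap-1 (16). All 4 values were below the median of all genes in their list, which was 18.1 in replicate 1 and 19.8 in replicate 2. The count of 0 depends in part on the window edges. The nearest pooled candidates lay 505 bp (osm-3, signal 23.2) and 593 bp (klp-20, 36.6) downstream of a 5′ end. That of xbx-1 (29.2) lay at -1035 bp. The klp-20 candidate was above the pooled median of 32.5. The nearest klp-20 candidates in the single lists, at 680 and 675 bp, had 23.0 in replicate 1 and 20.8 in replicate 2. At klp-11, che-3 and kap-1 the nearest pooled candidates lay farther off, at 2494, -2515 and -3262 bp.

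osm-3 nonetheless carried a final peak inside its coding sequence. The peak at chrIV:3797341-3797784 on ce11 had a signal of 84.8 (rank 314 of 457), with its summit in a coding exon of osm-3, 1767 bp downstream of the nearest annotated 5′ end, which is that of osm-3 itself. The nearest replicate 1 summit was 113 bp away, with a signal of 40.0 (rank 532), and the nearest replicate 2 summit was 5 bp away, with 40.7 (rank 560). Replicate 2 therefore matched the peak within 100 bp, and the replicate 1 summit lay just beyond that distance. It was the only final peak with its summit inside any of the 37 genes, and it was noticed after the values were seen. The share of all protein-coding genes with a final peak inside the gene was not computed, so this count has no background beside it. The 201 bases around its summit, chrIV:3797463-3797663, hold no X-box and none of the 4 short motifs named below, so no letter is in capitals. They are printed on the minus strand, in the direction of osm-3 transcription, and none of their 24-mers occurs elsewhere (0%).
osm-3: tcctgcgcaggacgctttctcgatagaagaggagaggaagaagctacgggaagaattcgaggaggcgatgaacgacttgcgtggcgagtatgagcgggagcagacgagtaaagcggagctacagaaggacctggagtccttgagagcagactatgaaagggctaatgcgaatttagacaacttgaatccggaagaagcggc

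IFT complex B, the larger of the transport complexes, had a pooled region at 7 of 13 genes (53.8%, against 41.2% of all protein-coding genes). Of these, 6 were at or below the median of all genes. The exception was dyf-3, which encodes the CLUAP1 homologue, with a pooled signal of 53.9 at chrIV:3398003-3398446 (rank 2125, percentile 86.8). Replicate 2 had a region of signal 40.4 (rank 570) with its summit 1 bp away. Replicate 1 had no summit within 100 bp, the nearest being 298 bp off, and its highest region at dyf-3, of signal 24.0, lay at -718 bp relative to a 5′ end. The pooled dyf-3 signal thus had its match in 1 replicate only. Its summit lay in a coding exon of dyf-3, 475 bp downstream of a 5′ end and close to the edge of the window.

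The other complex B genes with a pooled region were che-2 (31.7), the IFT80 gene, dyf-1 (31.5), the IFT70 gene, ift-81 (27.6), dyf-6 (26.6), the IFT46 gene, dyf-13 (26.6), the IFT56 gene, and che-13 (23.1), the IFT57 gene. che-13 was the lowest of all 16, at percentile 7.9, with its highest regions at 14.8 in replicate 1 and 14.1 in replicate 2. The replicate 2 summit lay 538 bp from the pooled summit. The dyf-13 summit fell inside the snRNA gene C27H5.11, and 48.3% of the 24-mers around it occur elsewhere in the genome. The part of repeated sequence in that signal was not tested. A final peak of signal 165 lay at -1690 bp relative to the che-13 5′ end, outside its window and 779 bp from the nearest protein-coding 5′ end, that of the neuropeptide gene nlp-4, and 126 bp from the snoRNA gene F59C6.15. osm-6 (14.6), ift-20 (14.5), ift-74 (13.5) and dyf-11 (15.9) had a region in replicate 1 alone, and osm-1 and osm-5, the IFT172 and IFT88 genes, in no list. The nearest pooled candidates lay 1085 bp downstream of an osm-1 5′ end and 3280 bp downstream of an osm-5 5′ end.

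IFT complex A had a pooled region at 2 of 3 genes (66.7%, against 41.2% of all protein-coding genes). che-11, the IFT140 gene, had a pooled signal of 30.7 (percentile 43.0), with 20.8 in replicate 1 and none in the window in replicate 2. dyf-2, the IFT144 gene, had a pooled signal of 27.9 (percentile 32.0) in an intron. Replicate 1 had 14.2 there, 5 bp away, and the nearest replicate 2 summit was 2320 bp off. The highest dyf-2 regions in the single lists, 22.4 in replicate 1 and 15.3 in replicate 2, lay at another 5′ end. daf-10, the IFT122 gene, had a region in replicate 2 alone (14.9, percentile 10.3). No complex A gene reached the median of all genes in the pooled list.

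The BBSome had a pooled region at 2 of 5 genes (40.0%, against 41.2% of all protein-coding genes). bbs-8 encodes a subunit with tetratricopeptide repeats and had a pooled signal of 48.1 at chrV:6765820-6766263 (rank 3250, percentile 81.4). Its region was matched in both replicates, at 22.2 in replicate 1 and 24.6 in replicate 2, with summits 2 and 1 bp from the pooled summit. That summit lay 970 bp upstream of bbs-8, in a coding exon of clik-1, near the outer edge of the bbs-8 window. bbs-1 had 32.1 in the pooled list (percentile 48.7), with its highest regions at 15.2 in replicate 1 and 15.3 in replicate 2. The replicate 2 summit lay 111 bp from the pooled summit. bbs-2, bbs-5 and bbs-9 had none in any list, and for bbs-5 the nearest pooled candidate lay 526 bp downstream of a 5′ end, just beyond the window.

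The transition zone had a pooled region at 3 of 5 genes (60.0%, against 41.2% of all protein-coding genes). nphp-1, the nephrocystin-1 gene, had a pooled signal of 39.1 at chrII:10652037-10652480 (percentile 68.3), with its summit 3 bp upstream of the 5′ end. Replicate 1 had 21.9 there, 2 bp away, while the nearest replicate 2 summit was 2506 bp off. mksr-2 and mksr-1, which encode B9 domain proteins, had regions in introns of their own. The mksr-2 signal was 28.0 in the pooled list, with the highest regions at 12.4 in replicate 1 and 18.8 in replicate 2. The replicate 2 summit lay 158 bp from the pooled summit. The mksr-1 signal was 24.1 in the pooled list and 13.2 in replicate 1, with no region in the window in replicate 2. mks-5, the gene of the scaffold on which the zone is assembled, had a region in replicate 1 alone (16.6), and nphp-4 in no list.

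**Figure D4:**
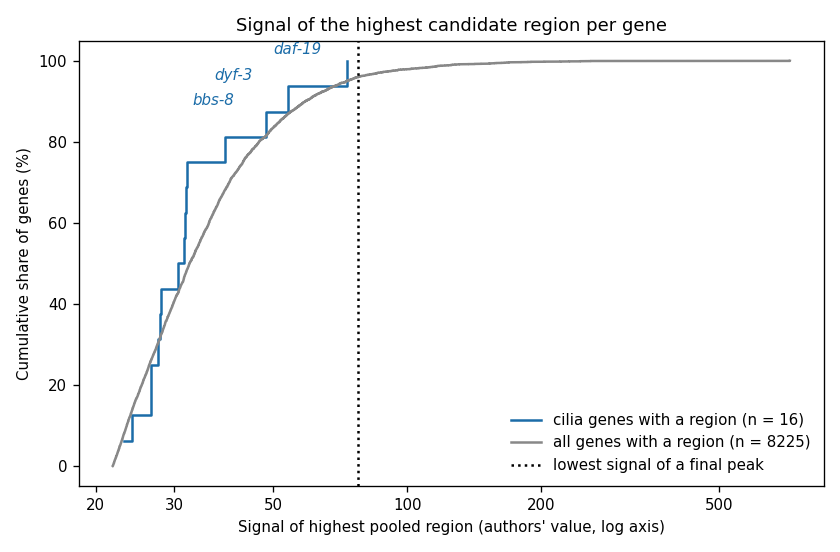
Cumulative share of genes in percent against the signal of the highest pooled region (log axis), for the 16 cilia genes with a region (blue) and all 8225 genes with a region (grey). The medians are 31.1 and 32.5, the blue steps lie above the grey curve over most of their upper part, and they end at daf-19 (73.0), left of the dotted line of the lowest final peak (77.4).

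The regions at cilia genes were matched unevenly in the replicates. A replicate 1 summit lay within 100 bp of the pooled summit at 14 of the 16 genes (87.5%, against 62.9% of the 8225 genes) and a replicate 2 summit at 5 (31.2%, against 57.0%). Both replicates matched at 3 of 16, daf-19, bbs-8 and dyf-1 (18.8%, against 32.1%), and neither matched at 0 of 16 (against 12.2%). The count in both depends on the match rule: 9 of 16 cilia genes had a region in each replicate that overlapped the pooled one by at least 1 bp, against 50.1% of all genes with a region. The 3 matched by summit had pooled signals of 73.0, 48.1 and 31.5. Outside the pooled list, 7 cilia genes (18.9%, against 8.97% of all genes) had a region in replicate 1 alone, from 13.3 to 16.6 with none above the median of all genes. A region in replicate 2 alone was found for 6 (16.2%, against 5.08%), from 14.9 to 22.7 with only dyf-5 above that median. Over all protein-coding genes, 1791 had a region in replicate 1 alone and 1015 in replicate 2 alone. How many of those were above the median was not counted, so these low values cannot be called particular to cilia genes. Over the 11 cilia genes with a region in both single lists, Spearman's rho between the highest signals was 0.52 and Pearson's r on log2 values 0.70, against 0.41 and 0.55 over 4790 genes. Without daf-19 and dyf-3, a choice made after their values were seen, these were 0.12 and 0.29 over 9 genes. These correlations are across genes, which are not independent replicates and whose highest regions need not be the same place in both lists.

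X-boxes were searched in the sequence near the 5′ ends. A match to the degenerate RFX consensus, searched on both strands, lay within 250 bp upstream to 50 bp downstream of a 5′ end in 19 of the 37 cilia genes (51.4%), against 1170 of 19973 genes (5.86%). In the wider window used for candidate regions, 25 of 37 cilia genes had one (67.6%), against 24.9% of all genes. X-boxes have been used to find ciliary genes, how many of the 37 were found so was not tested, and the share is not a measurement of MEC-3. An X-box was present in 10 of the 16 cilia genes with a pooled region (62.5%) and 9 of the 21 without one (42.9%). Over all protein-coding genes, 480 of the 8225 with a pooled region had one, and 1170 of all 19973 did (5.86%). The difference within the cilia genes was not tested. In 5 of the 10 cilia genes with both (50%) the element lay inside the region, namely at daf-19, che-2, che-11, che-13 and bbs-1. Over all genes with both a region and an X-box it did so in 105 of 480 (21.9%). Beside that share, summits lay within 200 bp of a 5′ end at 8 of 16 cilia genes (50%) and 31.0% of all genes.

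The X-boxes of 7 genes are shown on the strand of the gene, with the 14-base element in capitals and 6 bases on either side, to set those inside a candidate region beside those with no region. The first 3 lie inside a pooled region. The elements of dyf-2 and dyf-3 lie outside it, 582 and 979 bp from the summit, and those of osm-5 and osm-6 belong to genes with no pooled region.
daf-19, chrII:10169417-10169430: attttgGTTTCCATGGAAACtacttc
che-2, chrX:481321-481334: cagctgGTTGTCATGGTGACtgctcg
che-11, chrV:12150761-12150774: agcaaaATCTCCATGGCAACcaaaac
dyf-2, chrIII:13686585-13686598: agcccgGTTACCAAGGCAACaactcc
dyf-3, chrIV:3399198-3399211: cagggaGTTTCTATGGGAACggagga
osm-5, chrX:2984163-2984176: tacataGTTACTATGGCAACgctccg
osm-6, chrV:11927493-11927506: ccacatGTTACCATAGTAACcactca

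The palindromic core of the element, in its strictest form, was found in 5 cilia genes (13.5%), against 0.11% of all genes.

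Of the highest regions at cilia genes, 8 of 16 (50%) had their summit upstream of the 5′ end, where 64.8% of all genes with a region did. The median position relative to the 5′ end, negative values being upstream, was 47.5 bp for cilia genes and -179 bp for all genes. In all 16 the closest 5′ end of a protein-coding gene was the gene's own (100%, against 83.9%), and only ift-81 and arl-13 shared the summit with the window of another gene (12.5%, against 27.8%). Annotated 5′ ends in this animal are often trans-splice sites, so the start of transcription can lie further upstream.

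**Figure D5:**
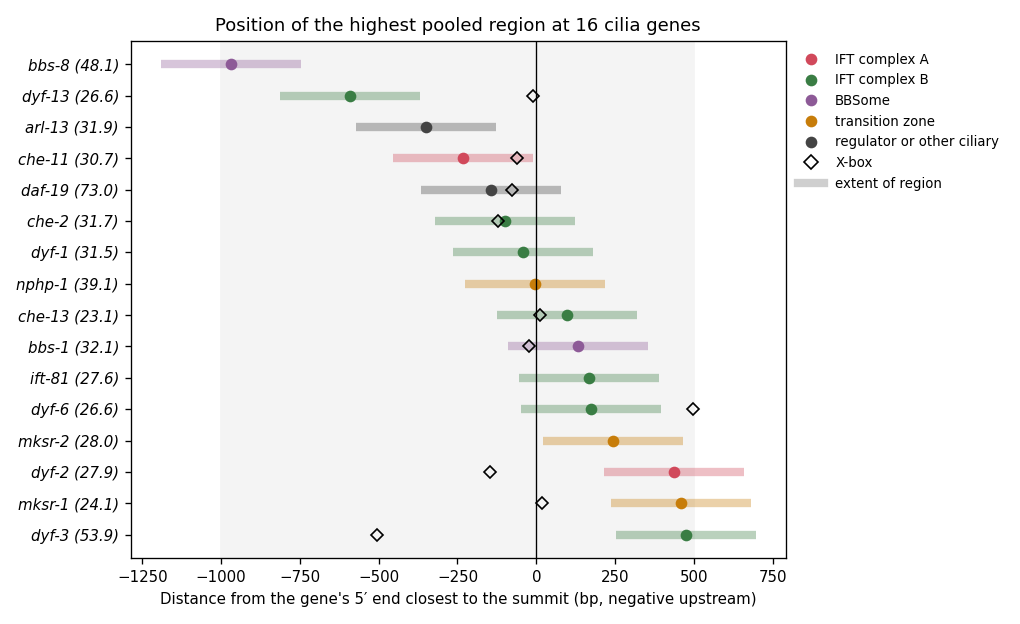
Position of the highest pooled region at the 16 cilia genes with one, relative to the 5′ end closest to its summit, in bp; dots are summits, bars the extent of the region, open diamonds X-boxes, the shaded band is the promoter window, and pooled signals stand beside the names. The diamond falls within the bar at 5 genes, daf-19, che-2, che-11, che-13 and bbs-1, and summits run from -970 at bbs-8 to 475 at dyf-3.

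Short homeodomain and POU type motifs were found at few of these regions. TAATTA, a homeodomain core, lay within 100 bp of the summit at 1 of 16 cilia genes, bbs-8 (6.25%, against 7.0% of the 8225 genes). AATGCAT, the type of site bound by UNC-86 with MEC-3, was found at dyf-2 alone (6.25%, against 2.57%), and ATGCAAAT, the POU octamer, at 0 (against 1.56%). GAGAGA was found at daf-19 and dyf-3 (12.5%, against 17.8%). All were searched on both strands, a match is not evidence of a bound site, and with 16 regions a single gene moves a share by 6.25 percentage points.

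Of 35 further ciliary genes, 1 had a final peak, where 1.66% of all protein-coding genes did. A pooled region was found at 13 of these (37.1%, against 41.2% of all genes), with a median signal of 33.6, against 32.5. In replicate 1, 51.4% had a region (62.2% of the 37 cilia genes and 42.6% of all genes), and in replicate 2, 22.9% (45.9% and 35.7%). The share with no region in any list was 45.7% (21.6% of the 37 cilia genes and 43.5% of all genes). The final peak lay 54 bp upstream of tmem-107, which encodes a transition zone membrane protein, with signals of 90.6 in the pooled list, 38.5 in replicate 1 and 51.1 in replicate 2. Its summit also lies in the window of rps-26, a ribosomal protein gene, so the region cannot be assigned to either. Next came tbb-4, a ciliary beta-tubulin gene, with its highest regions at 39.6 in the pooled list, 20.6 in replicate 1 and 22.6 in replicate 2. tctn-1, a tectonic gene of the transition zone, had 38.6, 24.9 and 16.8 in the same order. The replicate 2 summits lay 126 bp (tbb-4) and 202 bp (tctn-1) from the pooled summits. The cilia genes were also set beside a list of 25 pan-neuronal genes. Like the 35 further ciliary genes, these were chosen with earlier results of these data known. A pooled region was found at 43.2% of the 37 cilia genes, against 18 of the 25 pan-neuronal genes (72.0%), whose median signal was 37.6. Of these 18, 1 had a final peak, the complexin gene cpx-1 (78.4), a share of 5.56%, against 4.02% of all genes with a region. The promoter windows had a median length of 1501 bp for cilia genes and 2446 bp for pan-neuronal genes, and 56.8% of cilia genes have a single 5′ end, against 24.0%. The part of window length in that difference was not tested.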

How the data were processed

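ChIP-seq region lists from 2 biological replicates of 1 group were used, as deposited on ce11; lists on ce10 were not used here. Each region holds a signal value, which the authors made on a scale not given in the sources used here, and a −log10 q-value, also as deposited by the authors. Per the deposited file list, regions were called per replicate and on both together with a control file, and the final list came from an irreproducible discovery rate step. The sources used here do not name the aligner, caller, thresholds or read depth.

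Python 3.11.15 with pandas 2.3.3 and numpy 2.4.6 assigned summits to promoter windows of protein-coding transcripts in Ensembl release 115 (WBcel235). A summit counted for every gene whose window held it, and the highest signal per gene was kept. Replicate summits within 100 bp were matched. Sequences came from the RefSeq genome WBcel235. On simulated regions, 200 of 200 were assigned as placed. No test was run. The members and lists were chosen with earlier results of these data known. All 37 genes are accounted for, with values in each list for those above the 75th percentile, for the highest and lowest of each role, and for further ciliary genes with a final peak or the 3 highest signals. Alternatives changed the window, the 5′ ends, the q-value limit, the match rule, the final list and the X-box definition, and left out each replicate.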

Additional observations from a re-analysis of the deposited data

How the results depend on the processing

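Of 33 alternative values, 20 stayed within 1.5 times the reported count (for the median percentile, within the SD of the single-replicate values) and 13 moved beyond it. As the reported count of final peaks was 0, some of the 20 could only give 0. These were a shorter window, the most upstream 5′ end only, the nearest gene only and part of the final list. The X-box count in the window of the candidate regions, 25, was also among the 20, while the share of all genes moved from 5.86% to 24.9%. With the window starting 2000 bp upstream, 26 cilia genes had a pooled region (54% of all genes did). A final peak was found for 1 (che-13), against 2.12% of all genes, and 2 lay above the 90th percentile (che-13 and daf-19). With a −log10 q of at least 2, 0 cilia genes kept a region (1.68% of all genes did), so no median percentile could be computed. Among the 1000 pooled regions of highest signal, 1 cilia gene was found (daf-19), against 3.11% of all genes. Regions matched in both replicates numbered 9 of 16 when an overlap of 1 bp sufficed (50.1% of all genes with a region) and 7 when the overlap had to cover at least 0.5 of each region (43.5%). The palindromic X-box core alone was found in 5 cilia genes. In lists of a single replicate, cilia genes with a region numbered 17 to 23, those above the 90th percentile 0 to 2, and the median percentile was 28.1 to 35.2. Among as many top regions as there are final peaks, 0 cilia genes were found in replicate 1 (1.34% of all genes) and 1, daf-19, in replicate 2 (1.97%). The cause of these shifts was not tested. No paired analysis was possible because there is 1 group. The pooled regions of the 16 cilia genes had a median −log10 q-value of 0.126. With such values, 2 replicates, unknown depth and no control sample analysed here, weak regions cannot be told apart from background.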
